A study of Mus musculus with 40 samples.

Results

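WAPL peaks that carried neither cohesin nor NIPBL made up 2726 of the 57889 WAPL peaks found in both wild type libraries of mouse small pre-B cells, or 4.71%. A site was a peak of the WAPL WT 1 list, which holds 76389 peaks, that overlapped a peak of the WAPL WT 2 list by at least 1 bp and no peak in either WT library of RAD21, SMC3 or NIPBL. The sites were thus chosen by peak calls in WT libraries, so their WAPL signal and their lack of cohesin and NIPBL peaks are a description and support nothing. The other WAPL peaks, given only for comparison, were 10646 with NIPBL and no cohesin, 18578 with RAD21 or SMC3 and no NIPBL, and 25939 with both.

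The cells were small pre-B cells sorted from bone marrow. They came from Brwd1-/- mice (KO), from WT mice with the cells held in culture for 2 hours with 126 nM oligomycin A (ATPneg), or from WT mice with no culture. Culture and drug therefore cannot be told apart in ATPneg, and the part of Brwd1 that is deleted is not given in the sources used here. ChIP-seq, which counts DNA fragments pulled down with an antibody, was done on sorted cells, with 2 libraries per target and condition among 36 ChIP libraries, plus 4 inputs. Input is chromatin sequenced without an antibody.

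WAPL opens the cohesin ring and releases it from DNA, whereas NIPBL loads cohesin and drives the extrusion of loops. SMC3 and RAD21 are core parts of the ring, and CTCF stops it at its sites. In B cell development the release of cohesin by WAPL sets how far loops reach across the immunoglobulin loci, and BRWD1 is a reader of acetylated histones needed when the Ig kappa locus is recombined. H3K27ac marks active enhancers and promoters, and H3K4me1 marks enhancers.

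The sites rarely lay at a gene start. Of the 2726, 78 (2.86%, exact 95% interval 2.27 to 3.56%) lay within 2 kb of a start, each at a different gene, and 1581 (58.0%) lay in a gene body. The promoter share was 3.10% of the sites with NIPBL alone, 0.398% of those with cohesin alone and 1.83% of those with both. For 410 sites the deposited annotation named no gene. A gene named below is the one whose start lies nearest in that annotation, and a site need not lie inside it. Intervals on shares treat peaks as independent and cover counting error only.

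The promoters of Tpcn2 and Maml3 show sequence next to sites of unlike input. They were chosen after their values were seen, because the RefSeq promoter table (build GRCm38.p6) holds them and the sites lie beside the window. Tpcn2 encodes a cation channel of lysosomes, and Maml3 a coactivator of Notch. The site upstream of Tpcn2 (mm9, chr7:152470111-152470306) ended 277 bp from the deposited start and held 1562 input reads per kb in WT. The site upstream of Maml3 (mm9, chr3:51909181-51909295) ended 252 bp from it and held 286. Both genes are on the minus strand. The lines give the 150 bases of each window farthest from the start, 5′ to 3′ on the strand of the gene, at chr7:145284112-145284261 and chr3:52105107-52105256 of GRCm38.p6, and capitals mark a tandem run of a 4-base unit of at least 20 bases.
Tpcn2: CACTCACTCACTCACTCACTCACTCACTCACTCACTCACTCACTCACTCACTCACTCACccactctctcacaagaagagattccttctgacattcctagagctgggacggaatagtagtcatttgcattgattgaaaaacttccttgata
Maml3: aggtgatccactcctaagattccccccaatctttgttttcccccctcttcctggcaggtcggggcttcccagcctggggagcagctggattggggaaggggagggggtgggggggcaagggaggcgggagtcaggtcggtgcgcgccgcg
The Tpcn2 window opens with 59 bases of repeated CACT on the side of the site, and the Maml3 window has no such run. Among 32851 promoters of 300 bases, 0.971% hold a 4-base run of at least 20 bases, and 7 (0.0213%) hold CACT repeated 3 times in a row on either strand. The sites themselves lie outside these windows, and their own sequence was not analysed here. Whether the start is the same base in both annotations was not checked.

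Several facts on the libraries come before the results. Reads within WAPL regions numbered 30496715 and 28011360 in KO, 21488840 and 21978527 in WT, and 7995272 and 8044566 in the KO and WT input columns. The KO libraries of H3K27ac and H3K4me1 carry a WT genotype label against their titles, and some peak lists hold peak names of another sample. The H3K27ac KO lists hold names of H3K4me1, the H3K4me1 WT lists hold names of H3K27ac KO, and the names of NIPBL KO 2 and NIPBL WT 1 are crossed. Over 1149 H3K27ac regions of at least 1 kb, H3K27ac KO correlated with H3K27ac WT at a Spearman rho of 0.766 to 0.781, with H3K4me1 KO at 0.523 to 0.528 and with H3K4me1 WT at 0.206 to 0.212, and the libraries are used as titled. The list of CTCF WT 2 held 67796 peaks against 21429 in CTCF WT 1, and that of RAD21 KO 2 38712 against 16283 in RAD21 KO 1. Promoter regions of 8 of 10 small pre-B cell markers held H3K27ac, with sums of 49.8 to 53.0 CPM (reads scaled to a common library total) over the 4 libraries, and Vpreb3 and Rag2 had no region. H3K4me1 at the promoters of the same 10 markers summed to 215 and 209 CPM in KO against 383 and 393 CPM in WT, and the part of this difference in the H3K4me1 results was not tested. T cell markers summed to 6.30 and 5.58 CPM in KO and 4.71 and 4.73 CPM in WT, with regions at 6 of 9. NK cell markers summed to 3.69 and 4.03 CPM in KO and 2.98 and 2.96 CPM in WT, with 2 of 7, so both lists were higher in both KO libraries. Myeloid markers summed to 24.6 to 26.6 CPM with 5 of 9. Erythroid markers summed to 99.7 to 114 CPM from 3 of 8 genes, with none at Klf1, Alas2, Epor or Tal1. What these other cell types add to the results was not tested. In such bulk libraries, fewer cells with a bound protein and less protein per cell cannot be told apart.

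The first question was what distinguishes these sites in the chromatin that no antibody touched. They were narrow and dense in input. Their median width was 118 bp (108 to 1230 bp), against 126 bp with NIPBL alone, 584 bp with cohesin alone and 237 bp with both. The input column, 1 per genotype and so without replicates, held a median of 215 reads per kb of region in KO and 186 reads per kb in WT. The WT median was 291 at sites with NIPBL alone, 11.6 at sites with cohesin alone and 115 at sites with both, and 119 over all 127769 WAPL regions. More than 100 input reads per kb, here called dense, were found at 1948 sites (71.5%, 69.7 to 73.1%). Dense shares in the other classes were 91.1%, 4.77% and 51.3% in the same order, so the sites stood between those with NIPBL alone and those with both.

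**Figure D1:**
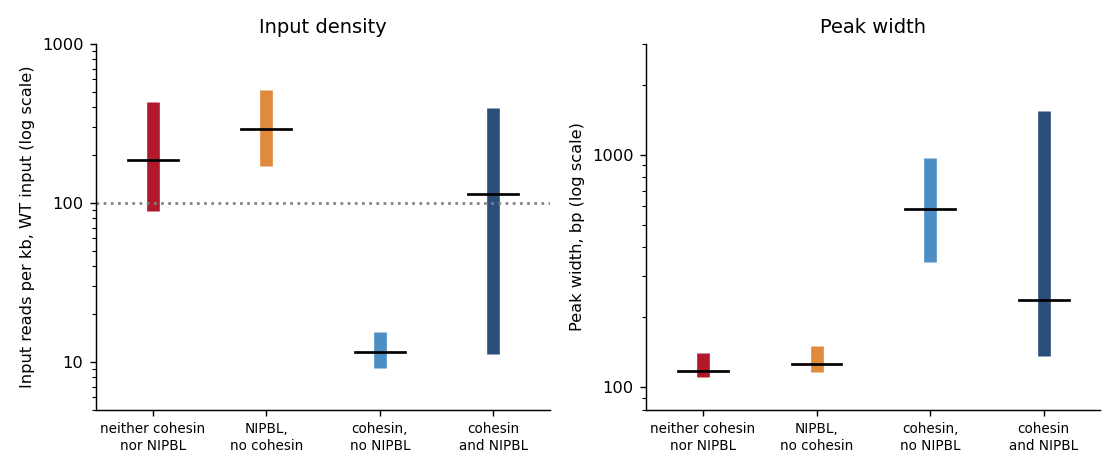
Input reads per kb of the merged WAPL region (left, WT input, log scale) and peak width in bp (right, log scale) for the 4 classes of WAPL WT peaks. Black lines are medians, coloured bars span the middle 50% of peaks, and the dotted line is 100 reads per kb. The 2726 sites, at medians of 186 reads per kb and 118 bp, sat next to the class with NIPBL alone (291 and 126 bp).

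The density ran over a wide range. The highest input stood at 46496 reads per kb, and the lowest at 0. Some named sites lay at the top of it. The site nearest Erg, an ETS factor of blood stem cells and early lymphocytes (chr16:95725555-95725708), held 34240 reads per kb in KO input and 33120 in WT input. The site near Trib2, a pseudokinase gene (chr12:16022319-16022431), held 13351 and 13237. At the other end, the site nearest Stag2, a cohesin subunit (chrX:39657832-39658168), held 14.8 in KO and 2.97 in WT, and that upstream of Myc (chr15:61767139-61767250) held 87.7 and 43.9.

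WAPL reads at the sites stayed close to the input. With 0.5 CPM added to each, the median ratio of WAPL to input CPM was 0.924 and 0.928 in the KO libraries against 0.914 and 0.870 in the WT libraries. At sites with cohesin alone these medians were 0.833 and 0.857 in KO against 2.09 and 2.02 in WT. At the 1948 dense sites the ratio was 0.907 and 0.917 in KO against 0.784 and 0.749 in WT. At the other 778 sites it was 0.960 and 0.952 in KO against 1.25 and 1.24 in WT. WAPL WT peaks chose the sites, and the dense split uses the WT input, which is also the denominator of the WT ratio, so no difference between KO and WT is read from these ratios. Across the 2726 sites, log2 WAPL CPM correlated with log2 input CPM at r = 0.934 and 0.931 in KO and 0.898 and 0.895 in WT; the sites share libraries and depth, and this is a description.

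**Figure D2:**
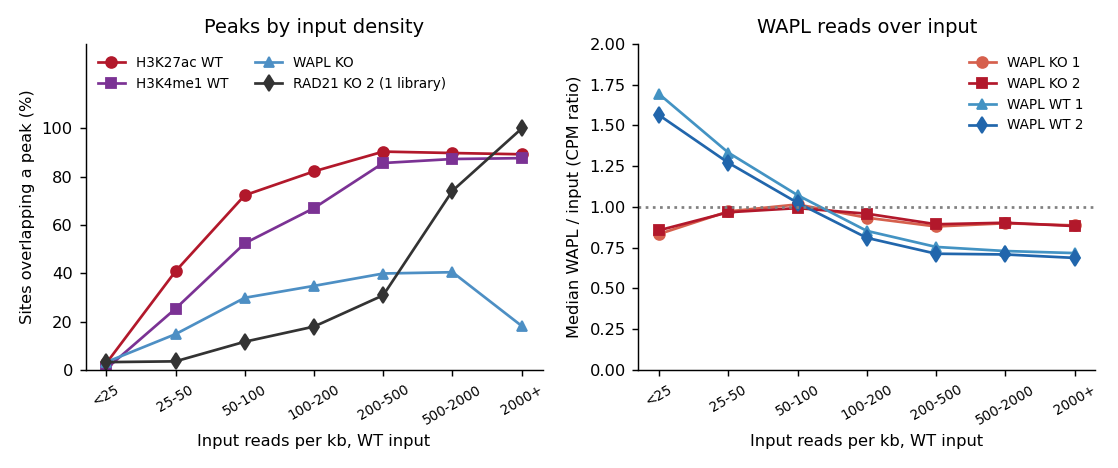
Share of the sites that overlap a peak (left, %) and median ratio of WAPL to input CPM (right), by input reads per kb in 7 bins of 142 to 699 sites. H3K27ac rose from 2.74% of sites in the lowest bin to 89.3% in the highest, the WT ratio was 1.69 and 1.56 in the lowest bin and 0.717 and 0.687 in the highest, and the KO ratio lay between 0.834 and 1.02.

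The bins are of WT input, which also divides the WT ratio, so the fall of that ratio over the bins is partly built in and is not set against the KO ratio. With under 25 input reads per kb, 2.74% of 219 sites had H3K27ac in both WT libraries, whereas 90.4% of 699 sites with 200 to 500 reads per kb did. H3K4me1 went from 0.457% to 85.7% over the same bins. The 219 sites of lowest input were also wider, at a median of 226 bp, with WAPL over input at 0.834 and 0.857 in KO against 1.69 and 1.56 in WT. With 100 to 200 reads per kb, H3K27ac was found at 82.2% of 664 sites and at 93.9% of 2458 sites with NIPBL alone, a difference that was not tested.

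Most of the sites overlapped peaks of H3K27ac and of H3K4me1, though the reads of these marks were not set against input. H3K27ac peaks of both WT libraries overlapped 2069 sites (75.9%, 74.2 to 77.5%), and H3K4me1 peaks of both overlapped 1813 (66.5%, 64.7 to 68.3%). H3K27ac covered 94.8% of sites with NIPBL alone, 2.55% with cohesin alone and 48.9% with both, and H3K4me1 covered 92.5%, 2.48% and 48.4%. By library, H3K27ac peaks covered 73.3% and 72.6% of the sites in KO against 76.9% and 77.2% in WT. H3K4me1 covered 64.9% and 66.5% in KO against 69.5% and 69.7% in WT. Both KO libraries were lower for each mark, but 2 libraries against 2 cannot go below p = 0.333 in an exact two-sided permutation test. The H3K27ac KO and H3K4me1 WT lists are those with peak names of another library. The H3K27ac lists held 153535 and 154573 peaks in KO against 202636 and 202735 in WT.

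The mark peaks at the sites were themselves narrow. Those of H3K27ac had a median width of 154 bp in both KO libraries and 163 bp in both WT libraries, with 5 to 7 per library reaching 1 kb. Of the 2726 sites, 1806 had both marks in WT, of which 1553 were dense. H3K27ac without H3K4me1 was found at 152 dense sites and at 111 others. H3K4me1 without H3K27ac was found at 5 dense sites and at 2 others, and 650 sites (23.8%) had neither. Among the 650, 412 were not dense. These 412 had a median width of 169 bp, and WAPL stood at 0.903 and 0.904 times input in KO against 1.48 and 1.42 in WT.

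**Figure D3:**
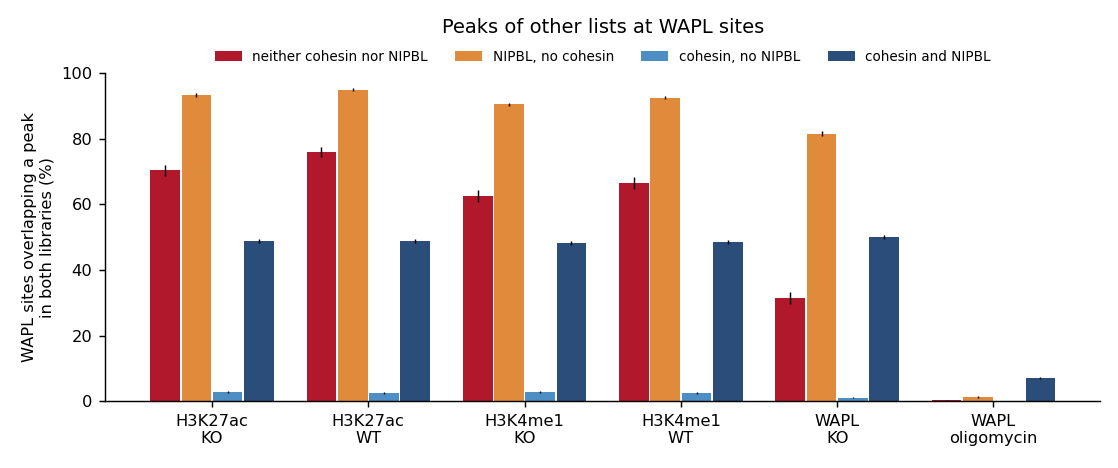
Share of WAPL WT sites (%) that overlap a peak in both libraries of each list, with exact binomial 95% intervals, for the 4 classes of sites. H3K27ac WT covered 75.9% of the sites without cohesin or NIPBL, between 94.8% with NIPBL alone and 48.9% with both, and WAPL peaks after oligomycin covered 0.293%.

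Presence of the sites in the WAPL lists of KO and after oligomycin was counted. The sites needed a WAPL peak in both WT lists, so a lower share in other lists is partly built in. No loss of WAPL is read from these shares. WAPL KO peaks overlapped 979 and 1524 of the sites (35.9% and 55.9%), and both lists overlapped 858 (31.5%). Both covered 81.5% of sites with NIPBL alone, 1.06% with cohesin alone and 49.9% with both. After oligomycin, WAPL peaks overlapped 11 and 53 sites (0.404% and 1.94%), which is 0.335% and 1.15% of lists of only 3280 and 4623 peaks. Both oligomycin lists overlapped 8 sites (0.293%, 0.127 to 0.577%), against 1.35% with NIPBL alone, 0.183% with cohesin alone and 7.23% with both. The oligomycin libraries have peak lists without counts, so their depth is unknown.

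The 56 sites with a WAPL peak in either oligomycin list were almost all dense. Their median was 3998 reads per kb in KO input and 3842 in WT input, 55 were dense and 54 had both marks. NIPBL peaks after oligomycin overlapped 46 of them, RAD21 peaks 39 and SMC3 peaks 20. Of the 8 sites in both lists, the highest score in both belonged to the site nearest Wbscr17, a glycosyltransferase gene (chr5:131521330-131521442). Its score, the authors' peak score, was 16.9 and 24.1 there, where the list medians were 10.7 and 11.4. The other 7 were nearest to Foxc1, D730050B12Rik, Krt73, Fgd2, Commd3, Car8 and Dnahc6.

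These 8 sites can also be followed across genotypes. Near Foxc1, a forkhead factor gene (chr13:31866065-31866187), WAPL stood at 198 and 193 CPM in KO against 102 and 113 CPM in WT, beside input of 16226 and 15019 reads per kb in KO and WT. Nearest Dnahc6, a dynein chain of cilia (chr6:73125652-73125798), it was 164 and 143 CPM in KO against 84.7 and 79.5 in WT. At the keratin gene Krt73 (chr15:101637279-101637445), the site of lowest input among the 8, it was 13.2 and 11.6 CPM in KO against 7.41 and 6.98 in WT. KO libraries were above WT libraries at all 8, and the calls at Krt73, Fgd2, Commd3, Car8 and Wbscr17 were lost without either KO library. H3K27ac went the other way at each of the 8, with KO libraries below WT libraries. All 8 sites were dense and had both marks. Of 1948 dense sites tested for WAPL, 261 were called higher and 58 lower in KO. Of 1750 tested for H3K27ac, 106 were called higher and 474 lower, so neither direction was seen only at these 8. Over all regions, WAPL was called higher at 13.1% and lower at 27.6%, and H3K27ac higher at 5.9% and lower at 10.6%. At Fgd2, a guanine exchange factor gene (chr17:29551285-29551527), H3K27ac was 346 and 355 CPM in KO against 531 and 532 CPM in WT, a log2 fold change of −0.60 ± 0.03 (SE, edgeR adjusted p = 1.44e-54). At Krt73 the H3K27ac difference did not pass, at −0.14 ± 0.08 (edgeR adjusted p = 0.307).

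**Figure D4:**
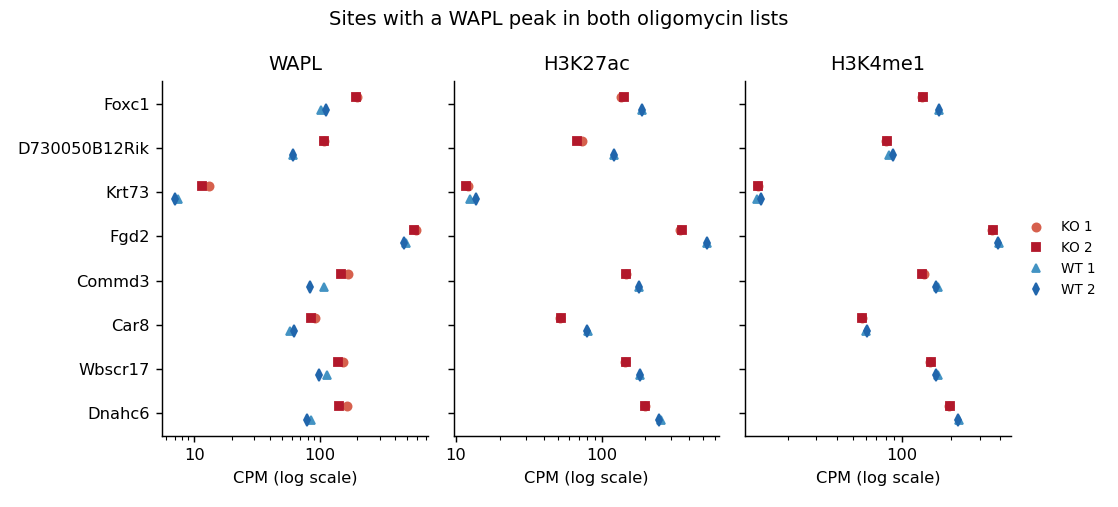
Normalised counts (CPM, log scale) of WAPL, H3K27ac and H3K4me1 in each KO (upper, red) and WT (lower, blue) library at the 8 sites with a WAPL peak in both oligomycin lists. WAPL KO points lie right of WAPL WT points at all 8, as 198 and 193 against 102 and 113 CPM near Foxc1, and H3K27ac KO points lie left of the WT points.

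Cohesin and NIPBL were barred from the sites in WT, and their peaks in other conditions varied by library. No KO or ATPneg peak of RAD21, SMC3 or NIPBL touched 1689 sites (62.0%). The same share was 26.7% with NIPBL alone, 91.5% with cohesin alone and 38.2% with both. RAD21 KO peaks overlapped 91 sites in the first library and 881 in the second, from lists of 16283 and 38712 peaks. The second list covered 32.3% of the sites, against 60.7%, 7.85% and 56.8% of the other classes in the same order. Since RAD21 WT peaks were barred, a site lies in a merged RAD21 region mainly through a KO peak. A KO level above WT there follows from how these sites were picked. At the 886 such sites, median RAD21 was 8.77 and 8.90 CPM in KO against 5.85 and 6.02 CPM in WT. Input there was 9.06 CPM in KO and 8.65 CPM in WT, with a median of 600.1 input reads per kb. SMC3 KO peaks overlapped 16 and 6 sites and NIPBL KO peaks 33 and 10. After oligomycin, NIPBL peaks overlapped 186 and 106 sites, RAD21 peaks 231 and 38, and SMC3 peaks 48 and 69.

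CTCF peaks were scarce at the sites in all libraries but 1, and scarce in the same libraries at the other WAPL peaks. CTCF KO peaks overlapped 10 and 11 sites, and CTCF WT peaks 10 and 1123. CTCF WT 1 covered 0.367% of the sites, against 0.385% with NIPBL alone, 0.248% with cohesin alone and 2.32% with both. CTCF WT 2 covered 41.2%, against 86.7%, 9.50% and 68.5% in the same order. The CTCF WT 2 library, which stands apart, holds 17055094 reads in CTCF regions against 3880112 in CTCF WT 1. Of 985 sites tested in CTCF regions, edgeR called 0, where of all 75717 regions 0.00792% were called higher, 0.0317% lower and 0.0396% in either direction. There were 116 sites at an unadjusted p under 0.05 with edgeR, and DESeq2 called 0, with 15. Most of the 1128 sites in a merged CTCF region lie there through a CTCF WT 2 peak. A WT level above KO at these sites thus follows in part from how they were picked. The median log2 fold change of the tested sites was −0.86, against −0.37 over all regions. It was −1.06 without CTCF WT 1 and −0.48 without CTCF WT 2, against −0.59 and −0.02 over all regions. No difference between KO and WT is read from these folds.

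WAPL itself was compared between genotypes by its reads. Of 2713 sites tested with edgeR, 279 were called higher and 242 lower in KO, while of all 126089 WAPL regions 13.1% were called higher and 27.6% lower, or 40.7% in either direction. Nothing is read from these counts, since WAPL WT peaks chose the sites. The median log2 fold change was 0.10 at the sites and 0.07 over all regions. Dense sites gave 261 higher and 58 lower, and the others 18 higher and 184 lower. Sites with both marks gave 253 higher and 30 lower, and sites with neither gave 14 higher and 201 lower. Library totals gave 509 higher and 191 lower, background scaling 1134 and 118, and a replicate block 190 and 202. Without WAPL KO 1, 5 were called higher and 2 lower, and without WAPL KO 2, 8 and 5.

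Of the 5 named sites of lower WAPL in KO, Lrch2, Mptx1 and Tsnax had neither mark and Fgf23 and Apcdd1 had both. Near Mptx1, a pentraxin gene (chr1:176241348-176241718), WAPL was 1.61 and 1.91 CPM in KO against 5.47 and 5.05 CPM in WT, a log2 fold change of −1.58 ± 0.22 (SE). The site annotated to Lrch2 (chrX:144181504-144181619) had 1.24 and 1.61 CPM in KO against 4.94 and 5.89 CPM in WT, or −1.93 ± 0.25. Upstream of Fgf23, a hormone of phosphate balance (chr6:127020098-127020228), it was 4.58 and 4.42 CPM in KO against 15.1 and 9.85 CPM in WT. The others were Apcdd1 (−1.44 ± 0.27) and Tsnax (−1.38 ± 0.19), the last assigned by the annotation to a start 101581623 bp away. The groups did not overlap at any of these, and each of the 5 calls was lost without either KO library.

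The 5 named sites of higher WAPL in KO had H3K27ac in both WT libraries. Nearest Sfmbt2, a Polycomb gene (chr2:10322168-10322309), WAPL was 8.67 and 7.98 CPM in KO against 3.53 and 3.76 CPM in WT, a log2 fold change of 1.19 ± 0.18 (SE). Nearest Cacna1e, a calcium channel gene (chr1:156407990-156408097), it was 6.68 and 5.53 CPM in KO against 2.57 and 2.52 CPM in WT, or 1.26 ± 0.21. Input at the Cacna1e site was 526 reads per kb in KO and 351 in WT. The largest fold went to the site near Med30, a Mediator subunit gene (1.35 ± 0.27), followed by Adh6a (1.32 ± 0.39), and the fifth was Id4 (1.15 ± 0.26). Input was also higher in KO near Med30 (221 reads per kb against 128 in WT), Id4 (223 against 124) and Sfmbt2 (202.5 against 150). At Adh6a it was 203 in KO against 218 in WT. The part of input in these folds was not tested. Each of the 5 WAPL calls was also lost without either KO library.

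The top WAPL scores in WT belonged to dense sites with 1 exception. The highest, 32.9, lay near Hspa4, a chaperone gene (chr11:53072504-53072629), with WAPL at 59.1 and 58.7 CPM in KO against 51.7 and 53.3 CPM in WT. The next were the sites annotated to Snord58b (32.7, with a start 1255076 bp away), Trib2 (25.6), Usp11, Tnr (24.3) and Ighv4-1, the last a heavy chain variable gene segment. The Usp11 site (chrX:20322193-20322640) had 22.3 input reads per kb in WT and no mark, and its WT libraries disagreed, with 0.650 and 1.37 CPM in KO against 4.07 and 1.73 CPM in WT. In the Ig kappa window at 67 to 71 Mb of chromosome 6 there were 5, of which those by Igkv3-8 and Igkv3-7 lay nearest a V segment, and 4 sites had an Ighv segment as their nearest gene. The Igkv3-8 site had 11.7 and 11.3 CPM of WAPL in KO against 11.5 and 11.9 CPM in WT. These values are scaled to library totals alone, unlike those of the other named sites, so no difference or likeness is read from them.

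H3K27ac, which the rule did not use, fell in KO at a larger share of the sites than it rose. Of 2148 sites tested with edgeR, 486 (22.6%) were called lower and 117 (5.45%) higher in KO, and over all 235173 H3K27ac regions 10.6% were called lower and 5.9% higher. The median log2 fold change was −0.10 at the sites and 0.02 over all regions. Dense sites gave 474 of the lower calls and 106 of the higher ones, and sites without dense input 12 and 11. The sites' median H3K27ac level, 3.13 and 3.11 CPM in KO against 3.17 and 3.16 CPM in WT, was above the 1.45 to 1.55 CPM of all regions, and its part in the share called was not tested. Library totals gave 351 lower and 196 higher, background scaling 842 lower and 65 higher, and DESeq2 249 lower and 38 higher.

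The 5 named falls in H3K27ac were of like size, at log2 fold changes of −1.06 to −1.02. The sites nearest Itgam, a myeloid integrin gene, and Ier2 lay 20460 and 38940 bp from the starts. Nearest Itgam (chr7:135226615-135226775), H3K27ac was 4.34 and 4.39 CPM in KO against 8.93 and 9.25 CPM in WT, a log2 fold change of −1.06 ± 0.12 (SE, edgeR adjusted p = 3.74e-14). At the site nearest Ier2, induced early by growth signals (chr8:87147693-87147806), it was 10.4 and 11.3 CPM in KO against 22.3 and 22.6 CPM in WT, or −1.05 ± 0.08. Near Kcnk9, a potassium channel gene (chr15:72386072-72386192), it was 26.1 and 29.8 CPM in KO against 58.4 and 57.2 CPM in WT. Tex36 (−1.05 ± 0.07) and Kcnh1 (−1.02 ± 0.06) completed the 5. H3K4me1 did not pass at the Itgam, Ier2, Kcnk9 and Tex36 sites, and at Kcnh1 it was higher by 0.24 ± 0.07 (edgeR adjusted p = 0.00854), a call lost under 4 of the alternatives.

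Of the 117 sites called higher for H3K27ac, 72 had both marks in WT and 23 had neither. With both marks 1806 sites were tested and 470 were called lower, and with neither 74 were tested and 0 were called lower. Those 74 lacked an H3K27ac peak in at least 1 WT library, so a KO level above WT there is partly built in. The 1806 had H3K27ac peaks in both WT libraries, so a KO level below WT there is partly built in too. The groups are therefore not set against each other. The 5 named for the largest fold had low levels in WT. Near G2e3, a ubiquitin ligase gene (chr12:52403107-52403214), it was 7.89 and 6.79 CPM in KO against 2.10 and 1.80 CPM in WT, a log2 fold change of 1.92 ± 0.15 (SE, edgeR adjusted p = 2.25e-24). Near Sh2d1a, the SAP adaptor gene of T and NK cells (chrX:39727769-39727876), it was 4.43 and 4.39 CPM in KO against 1.91 and 1.28 CPM in WT. Nearest Map4, which binds microtubules (chr9:109840720-109840833), it was 3.63 and 4.30 CPM in KO against 1.30 and 1.58 CPM in WT. Immp2l (1.36 ± 0.21) and Suclg2 (1.35 ± 0.23) followed. The G2e3, Map4 and Suclg2 sites had neither mark in WT. All 5 lay at dense sites with 379 to 1890 input reads per kb in WT.

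H3K4me1 was called at fewer sites. Of 2017 tested, 186 (9.22%) were lower and 68 (3.37%) higher in KO, near the 9.98% and below the 6.44% of all 179582 H3K4me1 regions, with median log2 fold changes of −0.06 at the sites and 0.005 over all regions. Library totals gave 126 lower and 127 higher, so the split has no direction under that scaling. Without H3K4me1 KO 1 the calls were 122 lower and 32 higher, and without H3K4me1 KO 2 125 and 35. Near Ndrg1, a stress-induced gene (chr15:66895205-66895313), H3K4me1 was 0.365 and 0.697 CPM in KO against 5.88 and 6.73 CPM in WT, a log2 fold change of −3.55 ± 0.24 (SE, edgeR adjusted p = 8.3e-43). Near Cdca7, a target of MYC (chr2:72393927-72394162), it was 1.22 and 0.755 CPM in KO against 6.68 and 6.65 CPM in WT. Ctnna3 (−2.61 ± 0.27), Cyp7b1 (−2.01 ± 0.17) and Nbeal1 (−2.01 ± 0.09) were the other 3. Of the 5 higher sites, Snord116 (0.80 ± 0.12) and Sh3gl1 (0.79 ± 0.16) led, then Cdon (0.71 ± 0.20), Taok3 (0.63 ± 0.13) and Sardh (0.61 ± 0.20). The H3K4me1 calls at Sh3gl1, Cdon, Taok3 and Sardh were lost with DESeq2, and those at Sh3gl1, Cdon and Sardh also without H3K4me1 KO 2.

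**Figure D5:**
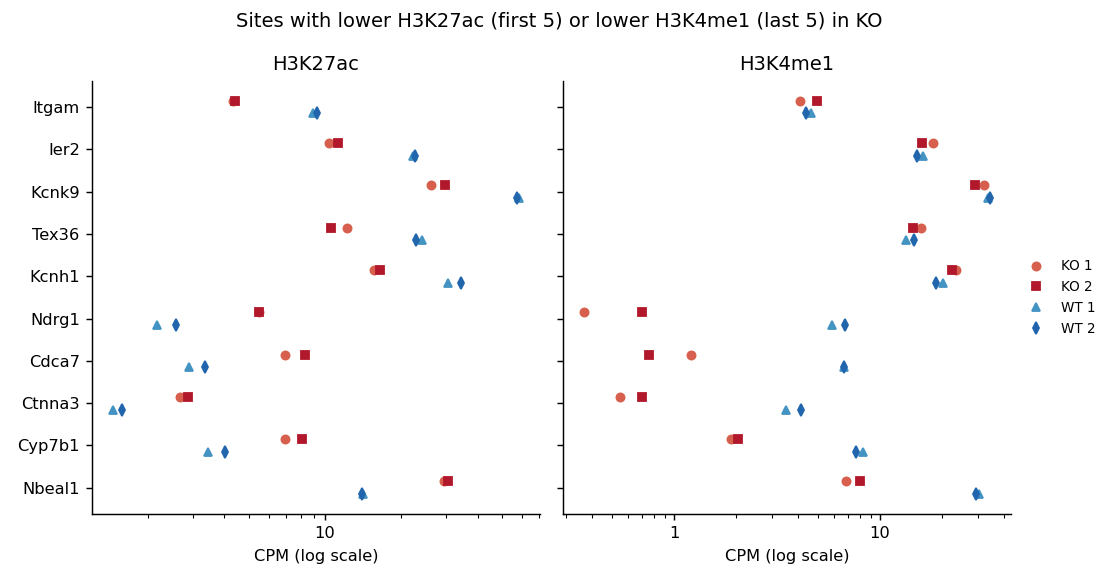
Normalised counts (CPM, log scale) of H3K27ac (left) and H3K4me1 (right) in each KO (upper, red) and WT (lower, blue) library, at the 5 sites with the largest fall in H3K27ac and the 5 with the largest fall in H3K4me1. At the last 5 sites H3K4me1 KO lies left of WT and H3K27ac KO lies right of WT, as at Nbeal1 with 6.87 and 7.96 against 30.4 and 29.4 CPM of H3K4me1.

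At each of the 5 sites that lost H3K4me1 most, H3K27ac was higher in KO. Nearest Nbeal1 (chr1:60248654-60248762), H3K27ac was 29.6 and 30.7 CPM in KO against 14.1 and 14.0 CPM in WT, or 1.1 ± 0.07 on the log2 scale (SE, edgeR adjusted p = 6.38e-36). Nearest Cyp7b1, an enzyme of sterol breakdown (chr3:18127605-18127713), it was 6.93 and 8.08 CPM in KO against 3.44 and 4.04 CPM in WT. Over 2009 sites tested for both marks, 24 had higher H3K27ac with lower H3K4me1, and 32 the reverse. The first pattern held at 0.912% of 161768 overlapping regions of both marks, and the second at 0.682%. All 24 sites were dense, at 155 to 9755 input reads per kb in WT with a median of 853, and RAD21 KO 2 peaks overlapped 21 of them. Their median H3K4me1 was 1.09 and 0.901 CPM in KO against 3.95 and 4.38 CPM in WT. At Nbeal1 the H3K27ac KO level of 29.6 and 30.7 CPM lay beside an H3K4me1 WT level of 30.4 and 29.4 CPM, and the peak names crossed between lists are those of H3K27ac KO and H3K4me1 WT. Their part in the opposite movement of the marks was not tested. At 88 sites both marks fell and at 4 both rose, against 2.78% and 0.941% of the overlapping regions.

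The 10 gene lists covered B lineage and recombination genes, cohesin, chromatin, NF-kB, cell cycle, splicing, ribosome, oxidative phosphorylation and stress genes. Of their 200 genes, 22 were nearest to a total of 26 sites, 0 of these within 1 kb of a start and 2 within 2 kb. WAPL was called higher at 3 of the 26 and lower at 1, with a median log2 fold change of 0.16. H3K27ac was called lower at 7 and higher at 1 of 21 tested, and H3K4me1 lower at 4 and higher at 1 of 20. Over all regions, WAPL was called higher at 13.1% and lower at 27.6%, H3K27ac lower at 10.6% and higher at 5.9%, and H3K4me1 lower at 9.98% and higher at 6.44%. With so few sites, nothing particular to the lists is read from these counts.

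Transcription factors of the B lineage had 10 sites at 6 of 20 genes. Ebf1, which commits cells to the lineage, had 4, Runx1 had 2, and Ikzf1, Erg, Lef1 and Klf2 had 1 each. H3K27ac fell at 3 of the 10 and H3K4me1 at 2 of 9 tested, and WAPL was called higher at 2, against 10.6%, 9.98% and 13.1% of all regions called in those directions. At Erg, H3K27ac was 108 and 107 CPM in KO against 144 and 140 CPM in WT, a log2 fold change of −0.39 ± 0.03 (SE, edgeR adjusted p = 1.77e-22). At Klf2, a quiescence factor of lymphocytes (chr8:74885025-74885135), it was 8.31 and 9.10 CPM in KO against 12 and 11.3 CPM in WT (edgeR adjusted p = 0.000191, not passed with DESeq2). At 1 of the Runx1 sites (chr16:92802981-92803094), H3K4me1 was 5.65 and 5.93 CPM in KO against 8.14 and 8.38 CPM in WT. That call was lost with DESeq2.

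Recombination and cohesin genes gave single sites. Dclre1c encodes Artemis, the nuclease that opens the hairpins of V(D)J recombination, and was the 1 gene of 22 with a site (chr2:3355683-3355855). There H3K27ac fell to 67.8 and 68.7 CPM in KO, against 103 and 105 CPM in WT (log2 −0.61 ± 0.04, edgeR adjusted p = 8.79e-35), and H3K4me1 to 65.0 and 72.3 CPM against 82.5 and 88.7 CPM in WT. WAPL there was 208 and 220 CPM in KO against 239 and 233 CPM in WT, beside 2909 input reads per kb in KO and 2886 in WT. At the site nearest Nipbl (chr15:8346526-8346633), H3K27ac was 3.22 and 2.57 CPM in KO against 6.03 and 5.62 CPM in WT (edgeR adjusted p = 5.21e-09). The Stag2 site, without dense input, had 0.464 and 0.637 CPM of WAPL in KO against 1.45 and 1.19 CPM in WT, and the Stag1 site 10.8 and 12.9 against 12.8 and 14.3. The WAPL call at Stag2 was lost with DESeq2, with background scaling and without either KO library. No site was nearest to Brwd1 or Wapal.

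The remaining lists held less. Nfkb1, an NF-kB subunit gene, had a site (chr3:135337263-135337459) with WAPL at 4.98 and 4.52 CPM in KO against 2.47 and 2.82 CPM in WT. The Nfkb1 call was lost with DESeq2, with the replicate block and without either KO library. Btg1 and Ier2 also had sites, and the Ier2 fall in H3K27ac is given above. At Ezh2, the Polycomb methyltransferase gene (chr6:47506165-47506272), H3K27ac fell to 59.6 and 58.5 CPM in KO, against 69.9 and 74.4 CPM in WT, while H3K4me1 was 72.9 and 75.1 CPM in KO against 64.8 and 65.2 CPM in WT. The H3K4me1 call at Ezh2 was lost with DESeq2, with background scaling and without H3K4me1 KO 2. None of the 4 cell cycle sites (Cdk1, Myc, Ccne1, Mki67) passed for WAPL. The Myc site was not tested for either mark, and none of the 3 tested passed for H3K27ac or H3K4me1. The 2 oxidative phosphorylation genes, Cox7c and Uqcrc1, had sites at −1481 and 1443 bp from their starts, and neither passed for WAPL. Dnajb1 of the stress list had 1 site, where no difference passed for WAPL, H3K27ac or H3K4me1, and the ribosome and splicing lists had 0.

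The rule has 2 edges. The nearest RAD21, SMC3 or NIPBL WT peak lay a median of 9218 bp from a site, within 1 kb of 367 sites and within 100 bp of 11, with the smallest gap at 9 bp. Of the WAPL peaks left out, none shared fewer than 12 bp with such a peak. The authors' WAPL score of the sites in WAPL WT 1 had a median of 7.33 and reached down to 5, the floor of the list, with 779 sites under 6.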

How the data were processed

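Per the labels' protocols, chromatin of sorted small pre-B cells was immunoprecipitated and sequenced. The submitters' processing notes name BWA, Picard, MACS2, bedtools, featureCounts, edgeR and the build mm9, with no role, order or version. The deposited tables give raw read counts per merged region, 1 table per target. The deposited peak lists, 1 per library, give a peak score by the authors that starts at 5, and what it measures is not given in the sources used here. Coordinates and gene annotation came from the deposited tables of input-subtracted signal, whose scale is not stated and whose values were not used. The values of 2 per-sample columns that match no sample here were not used.

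Sites and gene lists were chosen with earlier results of these data known. Overlaps needed 1 bp. Input density was input reads per kb of merged region, and ratios used CPM of the library totals with 0.5 added. CPM at named sites other than Igkv3-8, and median levels of the marks, are scaled with TMM factors. KO and WT were compared with edgeR 4.0.16 (quasi-likelihood, TMM, filterByExpr, no block, Benjamini-Hochberg over all regions, threshold 0.05), with DESeq2 1.42.0 as an alternative, in R 4.3.3, after tests on simulated data. Background scaling took library sizes from the 25% of regions with the fewest reads. Printed fold errors are SE. Nothing says that libraries came from separate animals, so p-values measure only the spread between these samples. Per comparison, the text names the 5 higher and 5 lower called sites of largest fold with at least median level and groups that do not overlap, the 6 highest WAPL scores, sites of the gene lists and the 8 sites in both WAPL oligomycin lists. Depth of the oligomycin libraries is unknown. Some genes of the lists are not reported here by name.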

Additional observations from a re-analysis of the deposited data

How the results depend on the processing

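Calls at the sites are given as totals, and nothing particular to the sites is read from them. Of all regions, the main edgeR fits called 40.7% for WAPL, 16.5% for H3K27ac, 16.4% for H3K4me1 and 0.0396% for CTCF. Shares of all regions under the other settings are not given here. For WAPL, 521 sites were called with edgeR, 158 with DESeq2, 700 with library totals and 1252 with background scaling, and leaving out 1 library gave 7 to 768. With the replicate block WAPL gave 392, with more lower than higher, and sites without dense input gave 202, also mostly lower. For H3K27ac, 603 were called with edgeR, 287 with DESeq2, 907 with background scaling, 456 to 514 without 1 library and 23 at sites without dense input. For H3K4me1, 254 were called with edgeR, 61 with DESeq2, 253 with library totals, which turned the split, 154 to 207 without 1 library and 13 at sites without dense input, which also turned it. For CTCF, 0 were called with edgeR and 0 to 807 without 1 library. The cause of these differences was not tested. The replicate block gave 622 for H3K27ac, 272 for H3K4me1 and 0 for CTCF. Deviations of same-numbered libraries correlated at −0.0002 for WAPL, 0.006 for H3K27ac, 0.009 for H3K4me1 and −0.208 for CTCF, and no label ties same-numbered libraries together. With the CTCF numbers crossed, 2 sites were called, 1 in each direction. Scaling moved the median log2 fold change of all WAPL regions from 0.07 to 0.24 with library totals and to 0.52 with background scaling, and that of H3K27ac from 0.02 to 0.13 and −0.18.

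The number of sites was 2726, 310 with a score minimum 2 times higher and 15121 when only peaks in both replicates barred a site. The share with WAPL in both oligomycin lists, 0.293%, was 0.645% with the stricter score, 1.86% with both replicates barring, 0% without dense input and 0.404 to 1.94% when 1 list was left out. The share with H3K27ac, 75.9%, was 88.4% with the stricter score, 81.3% with no barred peak within 1 kb, 70.5% with both replicates barring, 78.2% without the NIPBL WT 1 list and 46.8% without dense input. The share with H3K4me1, 66.5%, was 86.8%, 71.3%, 69.8% and 32.8% for the stricter score, 1 kb, no NIPBL WT 1 list and no dense input, and 69.5 to 69.7% from 1 library. Median input of 186 reads per kb was 1374 with the stricter score, 200 with no barred peak within 1 kb and 215 in the KO column. The NIPBL WT 1, crossed pairing and input alternatives were chosen after seeing the data. There is 1 input column per genotype, so input density has no replicate error.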
